A study of Danio rerio with 12 samples.

Results

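The genes described here are 5 that encode reproductive neuropeptide precursors (gnrh2, gnrh3, kiss1, kiss2 and tac3a) and 5 that encode nuclear receptors for sex steroids (esr1, esr2a, esr2b, ar and pgr). They were selected by gene symbol. Each of the 10 symbols had a single row among the 32674 genes of the deposited tables, and all 10 reached the filter on low values (at least 10 in at least 6 libraries) and entered the test.

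Eggs of the EK strain of zebrafish (Danio rerio) spent 24 h in 0.03 µM of methylmercury (MeHg), an organic mercury compound that reaches the brain, or in 0 µM, with ethanol as the vehicle. They founded a control lineage and a MeHg lineage, and the brain RNA sequenced was that of F3 adults, which had no exposure of their own. The control lineage is represented by 5 libraries, numbered 2, 4, 5, 6 and 8, and the MeHg lineage by 6, numbered 1, 2, 4, 5, 7 and 8. A further control sample in the labels, replicate 1, was matched by title to no column and is not analysed here. The labels give neither the sex of the fish nor the hour of collection, nor do they say whether a sample was a single brain or a pool. The submitters call the samples biological replicates, and p-values set the difference between lineages against the spread between these samples. The spread between founder families or tanks was not tested.

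Gonadotropin-releasing hormones are short peptides that drive the release of pituitary gonadotropins, and in zebrafish gnrh3 is made by neurons of the terminal nerve and the preoptic area, while gnrh2 is made by a small cell group in the midbrain. Kisspeptins and neurokinin B act upstream of gonadotropin release in mammals. In zebrafish kiss1 is expressed mainly in the habenula, kiss2 mainly in the hypothalamus, and tac3a, the precursor of neurokinin B, in both. The receptors for estrogens (esr1, esr2a, esr2b), androgens (ar) and progestins (pgr) are ligand-activated transcription factors through which gonadal and brain-made steroids act on neurons and glia.

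Scaled counts are the deposited fragment counts, which carry a size-factor division made by the authors. Errors after a log2 fold change (MeHg over control, on log2 of scaled count + 1) are standard errors, and those after a mean are SD. The most common low positive value of a library was read as 1 fragment, which gave whole fragment numbers for the 10 genes. Implied library totals ran from 2062482 to 7503932 fragments. In the whole brain RNA, 10 neuronal marker genes summed to 28573 to 40979, a sum led by snap25a. Control replicate 5 had the lowest value of 5 of them. There elavl3 stood at 495 against at least 1214 elsewhere, and map1b at 194 against at least 694. Its neuronal sum was 37639 all the same, and its stmn2a value of 4483 was the highest of all libraries. Control replicate 4 had the lowest value of the other 5 genes and the lowest sum. The 6 radial glia genes summed to 26183 in control replicate 5, against at most 15128 elsewhere. Markers of other tissues were uneven between libraries. A sum of 14 epidermal genes was 67625 in control replicate 4, 27812 in MeHg replicate 4 and 52275 in MeHg replicate 5, and at most 6550 elsewhere. A sum of 16 skeletal muscle genes was 25632 in MeHg replicate 4, 4766 in MeHg replicate 5, 2893 in control replicate 5 and 1178 in control replicate 4, and at most 618 elsewhere. A sum of 11 pituitary genes was 27379 in MeHg replicate 4, with the glycoprotein hormone subunit gene cga at 13946, and 48.7 to 412 in the other libraries.

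No peptide or receptor gene differed between the lineages at a limma adjusted p under 0.05, a threshold that 0.269% of all 16364 tested genes passed. At an unadjusted p under 0.05 the count was also 0 of 10, where 6.61% of all tested genes passed, 3.31% higher and 3.3% lower in the MeHg lineage. In none of the 10 genes were the libraries of the lineages fully separated, a pattern that 1.37% of tested genes showed. The genes differed in their spread between libraries. Messages of gnrh3 and gnrh2 varied widely in both lineages and those of kiss2 in the MeHg lineage. The wide spread of kiss1 rested on a single control library at 0. Taken over both lineages, the 3 estrogen receptor genes and pgr varied little more than fragment counting alone would give.

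**Figure D1:**
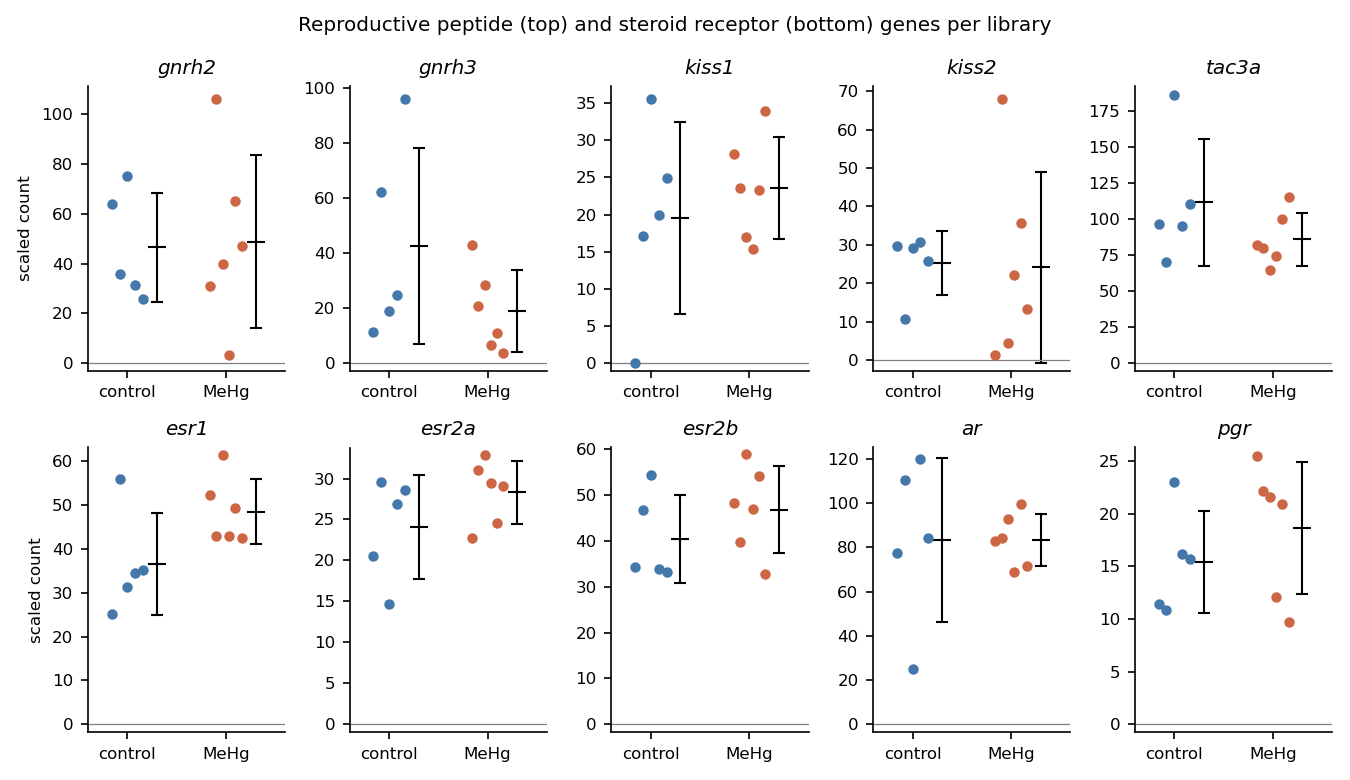
Scaled count of each gene (vertical axis, linear) in the 5 control and 6 MeHg libraries, 1 point per library, with the mean and SD beside the points. In kiss1 control replicate 2 lies at 0 while the other libraries lie at 15.4 or more, and in ar control replicate 5 lies at 25.1 while the other libraries lie at 69.0 or more.

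The gene for the midbrain form of gonadotropin-releasing hormone, gnrh2 (ENSDARG00000044754), had scaled counts of 64.0, 35.7, 75.2, 31.5 and 25.9 in control replicates 2, 4, 5, 6 and 8. In the MeHg libraries the lowest was 3.35, the median 43.5 and the highest 106. The low value came from MeHg replicate 5, the most deeply sequenced library, where it rested on 5 fragments (95% Poisson interval 1.09 to 7.81 as a scaled count, counting error only). The next lowest MeHg library, replicate 1, stood at 30.8, and MeHg replicate 2 was above all control libraries. Means were 46.5 ± 21.8 (SD, n = 5) and 48.7 ± 34.8 (SD, n = 6), and the log2 fold change was -0.31 ± 0.67 (limma adjusted p = 0.947). Without MeHg replicate 5 the log2 fold change was 0.30 ± 0.38, so the direction rested on that library.

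The hypophysiotropic form, gnrh3 (ENSDARG00000056214), stood at 11.4, 62.1, 18.8, 24.6 and 96.1 in control replicates 2, 4, 5, 6 and 8, and its MeHg libraries had a lowest value of 3.63, a median of 15.9 and a highest value of 42.9. Control replicates 4 and 8 lay above all MeHg libraries, and 3 MeHg libraries, replicates 5, 7 and 8, lay below all control libraries, and the remainder were mixed. MeHg replicate 8 held 3 fragments and control replicate 2 held 5. The 95% Poisson interval of control replicate 2, 3.71 to 26.7 as a scaled count, took in the values of MeHg replicates 5 and 7 (6.70 and 11.1). Their order against that control library thus lay within counting error. Means were 42.6 ± 35.7 (SD, n = 5) and 18.9 ± 14.9 (SD, n = 6). The log2 fold change of -1.12 ± 0.66 (limma adjusted p = 0.834) corresponds to a fold of 0.460 with a 95% interval of 0.172 to 1.23. Leaving out a single library moved the log2 fold change between -1.47 and -0.73. The unadjusted p was 0.0478 without control replicate 2 and 0.0476 without MeHg replicate 1, with adjusted p of 0.861 in both fits.

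For the habenular kisspeptin gene kiss1 (ENSDARG00000075829) the control libraries held 0, 17.1, 35.5, 20.0 and 24.9 in replicates 2, 4, 5, 6 and 8. MeHg libraries ranged from 15.4 to 33.9 with a median of 23.5. Apart from the library at 0, the ranges of the lineages overlapped almost entirely. Control replicate 2 was the shallowest library, and a count of 0 there allows a scaled count of up to 6.86 (3 fragments; the 95% Poisson bound used for the other low counts is 8.43), and every other library lay above both limits. The log2 fold change was 0.88 ± 0.76 (limma adjusted p = 0.888) with all libraries and -0.043 ± 0.31 (limma adjusted p = 0.984) without control replicate 2. A set of 9 genes of the habenula was detected in full in that library and summed to 1010, the median of the control libraries, within a range of 814 to 1208 in control and 713 to 1135 in MeHg libraries. Single genes of the set went either way there. The value of kctd12.1 was the lowest of all libraries (121 against at least 143), and that of nptx2a the highest (50.3 against at most 49.1). Whether the sum reflects the cells that express kiss1 was not tested.

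The hypothalamic kisspeptin gene kiss2 (ENSDARG00000077985) had its lowest and highest values in the MeHg lineage, a difference in spread that was not tested. Control replicates 2, 4, 5, 6 and 8 held 29.7, 10.9, 29.3, 30.7 and 25.9. The MeHg libraries had a lowest value of 1.34, a median of 17.7 and a highest value of 67.9. MeHg replicates 1 and 4 held 1 and 4 fragments (95% Poisson intervals 0.0339 to 7.47 and 1.24 to 11.6 as scaled counts), while MeHg replicate 2 held 46. Means were 25.3 ± 8.26 (SD, n = 5) and 24.1 ± 24.8 (SD, n = 6), and the log2 fold change came to -0.74 ± 0.74 (limma adjusted p = 0.906). It was -0.21 ± 0.60 (limma adjusted p = 0.972) without MeHg replicate 1, -0.45 ± 0.76 (limma adjusted p = 0.943) without MeHg replicate 4 and -1.18 ± 0.68 (limma adjusted p = 0.930) without MeHg replicate 2, the ends of the range being the first and the last.

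Markers of the hypothalamus and preoptic area were listed as 15 genes, all above 0 in 10 libraries and 14 above 0 in MeHg replicate 4, where the orexin gene hcrt was at 0. Their sum ran from 1840 to 8705 in control and from 2719 to 3778 in MeHg libraries, and was highest in control replicate 5. Single genes of the list were mostly lower in the MeHg lineage. Of 12 tested, 10 had log2 fold changes below 0, with a median of -0.37 over the 12. None passed the threshold (smallest limma adjusted p = 0.366). In MeHg replicate 4, the second lowest library for kiss2, the developmental regulators otpa and otpb, which mark neuroendocrine neurons, stood at 65.7 and 34.0, against at least 117 and 65.3 in every other library, and npvf at 6.80. The same library had pomca, a list member that pituitary cells also express, at 2029, against 32.2 to 127 elsewhere. That value was part of its sum of 3778, the upper end of the MeHg range. MeHg replicate 1, the lowest library for kiss2, had otpa at 119 and otpb at 115, within the range of the others. Its npvf value, however, was the second lowest of all libraries, above that of MeHg replicate 4 alone. The lowest libraries for kiss2 were thus also the lowest for npvf, which is 1 gene of the 15 listed. The match did not extend to MeHg replicate 5. Its npvf value of 13.4 lay only just above that of MeHg replicate 1, yet its kiss2 value of 22.1 was within the control range. Other list members went either way in MeHg replicate 1, where pomca was the lowest of all libraries (32.2) and avp the highest of the MeHg lineage (89.8). Low values of otpa and otpb were seen in MeHg replicate 4 only. The part of these regional differences in the kiss2 values was not tested. In these bulk samples, fewer cells of a type and less RNA per cell cannot be told apart.

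The neurokinin B precursor gene tac3a (ENSDARG00000093089) had the lowest coefficient of variation of the peptide genes over both lineages, at 33.3%. In the control libraries alone it was 39.6%, above that of kiss2 at 32.7%. Scaled counts of tac3a were 96.0, 69.9, 186, 95.2 and 110 in control replicates 2, 4, 5, 6 and 8. The MeHg libraries ran from 64.6 to 115 with a median of 80.7. Control replicate 5 lay above all other libraries and the rest overlapped. Means were 111 ± 44.1 (SD, n = 5) and 85.8 ± 18.3 (SD, n = 6), and the log2 fold change was -0.32 ± 0.24 (limma adjusted p = 0.870). Without control replicate 5 it was -0.12 ± 0.19 (limma adjusted p = 0.869).

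Among the receptor genes, esr1 (ENSDARG00000004111), the estrogen receptor alpha gene, came first by p. Control replicates 2, 4, 5, 6 and 8 had scaled counts of 25.1, 55.9, 31.4, 34.6 and 35.1, and the MeHg libraries a lowest value of 42.4, a median of 46.0 and a highest value of 61.2. All control libraries except replicate 4 lay below all MeHg libraries. Control replicate 4 lay above all MeHg libraries except replicate 4, and was the library with the most epidermal message. Means were 36.4 ± 11.6 (SD, n = 5) and 48.5 ± 7.46 (SD, n = 6). The fold was 1.36 with a 95% interval of 0.973 to 1.89 (log2 fold change 0.44 ± 0.22, unadjusted p = 0.0687, limma adjusted p = 0.796), rank 1409 by p among the 16364 tested genes. Without control replicate 4 the log2 fold change was 0.60 ± 0.20 (unadjusted p = 0.0105, limma adjusted p = 0.362). Without control replicate 2 it was 0.32 ± 0.22 (unadjusted p = 0.174, limma adjusted p = 0.880), and the other omissions of a single library lay between these values. In the 7 libraries without high epidermal or muscle sums it was 0.56 ± 0.23 (limma adjusted p = 0.432).

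The beta-type estrogen receptor genes had smaller log2 fold changes than esr1, a contrast that was not tested. For esr2a (ENSDARG00000016454) the control libraries held 20.6, 29.5, 14.6, 26.9 and 28.6 in replicates 2, 4, 5, 6 and 8, and the MeHg libraries ran from 22.8 to 32.9 with a median of 29.3. The log2 fold change was 0.26 ± 0.24 (limma adjusted p = 0.897), and control replicates 2 and 5 alone lay below all MeHg libraries. It was 0.098 ± 0.21 (limma adjusted p = 0.907) without control replicate 5 and 0.083 ± 0.26 (limma adjusted p = 0.928) without the 4 libraries of high epidermal or muscle sums. For esr2b (ENSDARG00000034181) the control values were 34.3, 46.6, 54.3, 33.8 and 33.3, and the MeHg libraries ran from 32.7 to 58.9 with a median of 47.6. Its lineages overlapped over the whole control range, and the log2 fold change came to 0.21 ± 0.22 (limma adjusted p = 0.909).

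The androgen receptor gene ar (ENSDARG00000067976) had nearly equal means, 83.4 ± 37.0 in control (n = 5) and 83.4 ± 11.8 in MeHg libraries (n = 6). Its control libraries stood at 77.7, 110, 25.1, 120 and 84.1 in replicates 2, 4, 5, 6 and 8, and the MeHg libraries between 69.0 and 99.5 with a median of 83.6. Control replicate 5 was thus far below all others. The log2 fold change was 0.16 ± 0.33 (limma adjusted p = 0.947) and became -0.22 ± 0.17 (limma adjusted p = 0.709) without that library. The progestin receptor gene pgr (ENSDARG00000035966) held 11.4, 10.9, 23.0, 16.1 and 15.7 in the control libraries and 9.69 to 25.5, with a median of 21.2, in the MeHg libraries. MeHg libraries lay at both ends of its range, and the log2 fold change was 0.23 ± 0.32 (limma adjusted p = 0.926).

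Control replicate 5 also held little message of the T-box genes tbr1b and eomesa, which mark glutamatergic neurons of the pallium and olfactory bulb in the forebrain. These genes were singled out from a list of 9 olfactory bulb and epithelium genes after their values were seen. Together they summed to 117 in control replicate 5 and 102 in MeHg replicate 8, and to 389 to 1153 in the other libraries. The whole list summed to 1471 in control replicate 5, the median of its lineage, within 1181 to 1744 in control and 876 to 1976 in MeHg libraries. Its member calb2a, a calcium-binding protein gene, was highest there, at 1354 against 550 to 949 elsewhere. Of the list, 6 of 9 genes were at 0 in control replicate 5 and 2 in MeHg replicate 8, against 1 to 5 in the other libraries (5 in control replicates 6 and 8). MeHg replicate 8 was the lowest library for gnrh3, esr2b and pgr (esr2b at 32.7 and pgr at 9.69). For esr2b and pgr this rank lay within counting error. Control replicates 8, 6 and 2 had esr2b at 33.3, 33.8 and 34.3. The pgr value rested on 8 fragments, and control replicates 4 and 2 stood at 10.9 and 11.4. In MeHg replicate 8 the ar value of 71.5 was the second lowest of the MeHg lineage. The tac3a and kiss1 values of that library, 115 and 33.9, were exceeded in control replicate 5 alone. Control replicate 5, the lowest library for ar and esr2a, was the highest for tac3a and kiss1. It was the second highest for gnrh2, esr2b (54.3) and pgr (23.0). It held the most hypothalamic message, with the hypothalamic appetite gene agrp at 102 against 3.69 to 41.9 elsewhere. Differences of control replicate 5 were not limited to regional markers, since elavl3 and map1b were also lowest there, as given above. What part tissue content, RNA quality or other properties of these libraries have in the receptor and peptide values was not tested. Without both libraries the log2 fold change of gnrh3 was -0.96 ± 0.66, that of ar -0.18 ± 0.18, that of tac3a -0.21 ± 0.18 and that of esr2b 0.42 ± 0.20 (limma adjusted p of 0.740, 0.826, 0.795 and 0.621).

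**Figure D2:**
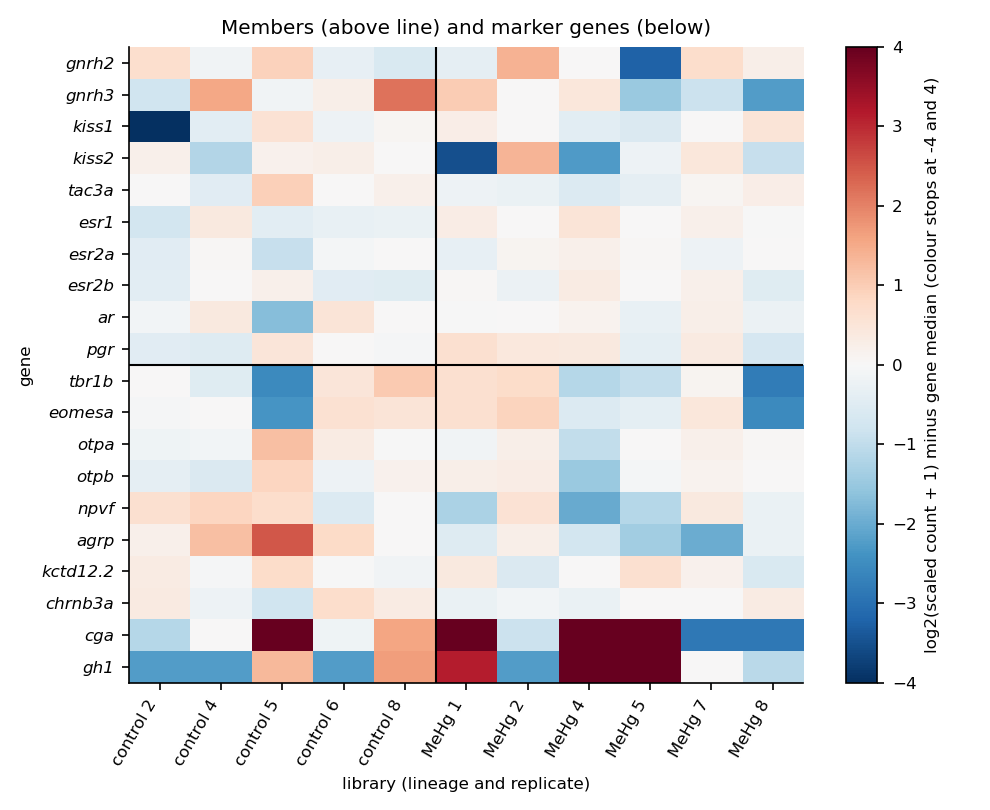
Colour gives log2(scaled count + 1) minus the gene's median over the 11 libraries, for the 10 genes (above the line) and 10 marker genes of forebrain (tbr1b, eomesa), hypothalamus (otpa, otpb, npvf, agrp), habenula (kctd12.2, chrnb3a) and pituitary (cga, gh1), with libraries in columns. The deepest blue cells among the 10 genes are kiss1 in control replicate 2, kiss2 in MeHg replicate 1 and gnrh2 in MeHg replicate 5, whereas the estrogen receptor rows stay pale.

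The spread between libraries was set beside the spread that counting fragments would give alone. Within lineages the coefficient of variation (CV) of gnrh3 was 88.6% where counting gives 21.8%, that of kiss2 78.2% against 23.3%, that of gnrh2 62.3% against 16.7%, and that of kiss1 46.3% against 24.6%. By lineage the spread was not even. The CV of kiss1 was 66.5% in control and 29.3% in MeHg libraries, and 30.9% over both without control replicate 2, where counting gives 22.8%. That of kiss2 was 32.7% in control, where counting gives 24.6%, and 103% in MeHg libraries. That of gnrh2 was 46.9% in control and 71.3% in MeHg libraries, and 50.1% over both without MeHg replicate 5, and that of gnrh3 was 83.9% and 79.0%. For tac3a the values were 33.3% and 11.8%, and for ar 31.4% and 12.7%, which became 20.0% and 11.9% for tac3a and 17.4% and 11.9% for ar without control replicate 5. Those of esr1 (22.2% and 17.5%), esr2b (21.7% and 17.4%) and pgr (33.1% and 27.7%) were close to counting error, and that of esr2a (19.3% and 22.4%) was below it. By lineage the CV of esr1 was 31.9% in control libraries, where counting gives 20.5%, and 15.4% in MeHg libraries, where counting gives 15.6%. Taken over both lineages, the 3 estrogen receptor genes and pgr thus showed little variation between libraries that these depths could resolve. They held 157 to 407 fragments per gene over all libraries. On the log2 scale the SD within lineages of the gonadotropin-releasing hormone and kisspeptin genes was 1.22 to 1.43, at percentiles 95.4 to 97.2 of all tested genes, whose median was 0.39. Without control replicate 2 the SD of kiss1 was 0.42 (percentile 55.2), and without MeHg replicate 5 that of gnrh2 was 0.67 (percentile 76.7), while those of gnrh3 and kiss2 stayed at 1.06 or more whichever library was left out. The estrogen receptor genes lay at 0.31 each, percentiles 34.4 to 35.9. These percentiles include counting error, which weighs more on genes of low count. Fragments amplified by PCR are not independent molecules, so the counting values cover counting error only.

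**Figure D3:**
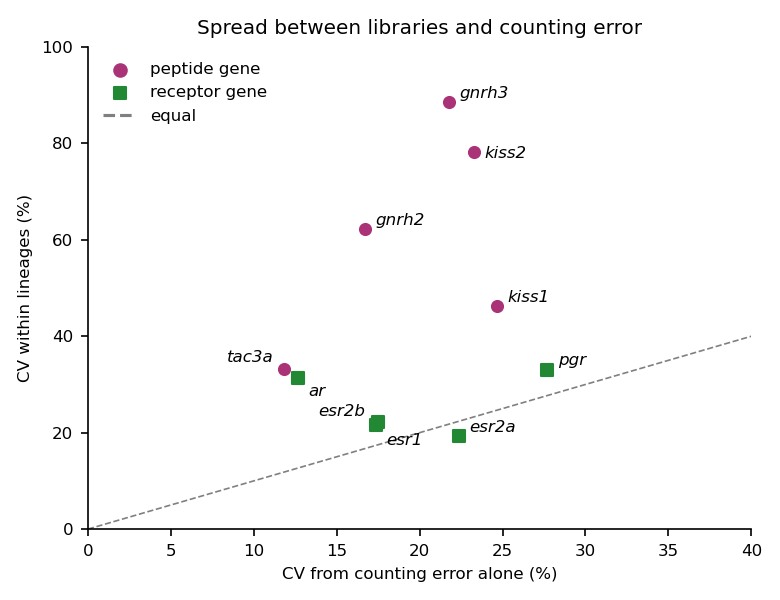
Coefficient of variation within lineages (vertical axis, %) against the coefficient that fragment counting alone gives (horizontal axis, %), 1 point per gene, with the line of equality. The peptide genes gnrh3, kiss2, gnrh2 and kiss1 lie at 46.3% to 88.6%, above the line (kiss1 at 30.9% without control replicate 2), and esr1, esr2a, esr2b and pgr lie near it.

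This spread set what the lineage comparison could resolve. For tac3a and all 5 receptor genes the 95% interval of the fold between lineages lay within 2-fold in either direction. It ran from 0.561 to 1.14 for tac3a, 0.834 to 1.71 for esr2a, 0.676 to 1.85 for ar and 0.721 to 1.91 for pgr. For the other 4 genes the interval reached past 2-fold, so a difference of that size was not excluded in these libraries. It ran from 0.296 to 2.20 for gnrh2, 0.172 to 1.23 for gnrh3, 0.586 to 5.77 for kiss1 and 0.196 to 1.83 for kiss2. The kiss1 interval rested on control replicate 2, without which it ran from 0.609 to 1.55, and that of gnrh2 ran from 0.686 to 2.20 without MeHg replicate 5. Leaving out single libraries also took the upper bound of esr1, ar and pgr to at most 2.12. Without the libraries high in epidermal or muscle markers it was 2.08 for esr1 and 2.29 for pgr. Without those low in tbr1b and eomesa it was 2.30 for pgr. All 5 receptor genes had log2 fold changes above 0 and 4 of 5 peptide genes had values below 0, none of which passed the test. Among all tested genes 54.3% had values above 0, with a median of 0.03. Of the 12 tested marker genes of the hypothalamus and preoptic area, 10 had values below 0. The signs of ar, gnrh2 and kiss1 each turned when a single library was left out, as given above, and the signs of all 10 genes were the same under the other scalings tried.

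**Figure D4:**
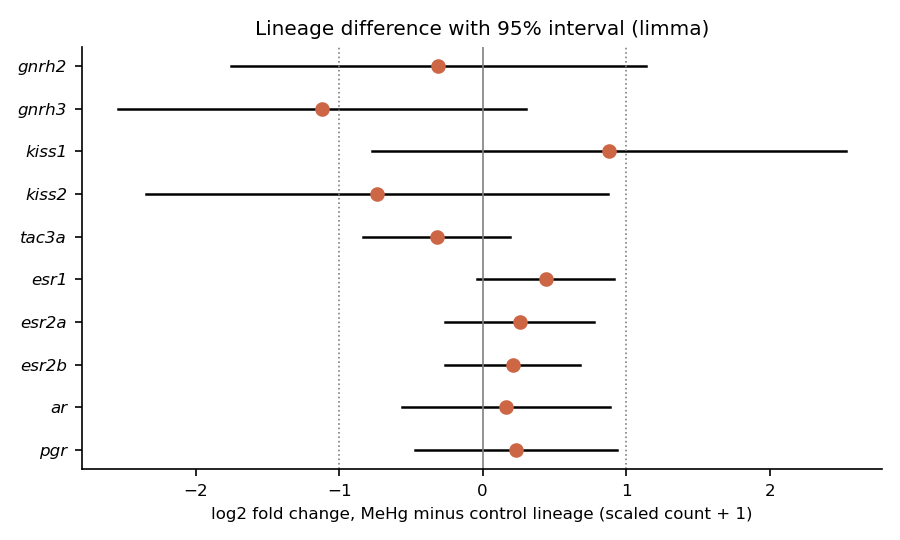
Log2 fold change of each gene, MeHg minus control lineage, on the scale of log2(scaled count + 1), with its 95% interval from limma; dotted lines mark 2-fold. Every interval includes 0, and those of gnrh2, gnrh3, kiss1 and kiss2 cross a dotted line.

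Levels of different genes were compared as FPKM, a deposited unit that takes gene length into account. For most members the scaled count per FPKM unit was nearly constant over libraries, so both units carry much the same scaling between libraries. By the median of 11 libraries the order was tac3a at 30.2, gnrh2 at 14.1, gnrh3 at 12.9, kiss1 at 8.82, kiss2 at 7.26, ar at 4.89, esr2b at 3.25, esr1 at 2.25, pgr at 1.70 and esr2a at 1.62. The FPKM ranges of each pair of neighbours in this order overlapped. Within libraries some neighbours kept their order all the same. The FPKM of tac3a exceeded that of gnrh2 in 10 of 11 libraries, that of ar exceeded that of esr2b in 9, and that of esr2b exceeded that of esr1 in 11. In contrast gnrh2 was above gnrh3 in 5, and kiss1 above kiss2 in 6, so no order held within either pair.

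Of the estrogen receptor genes esr2b had the highest FPKM and esr2a the lowest in 11 of 11 libraries. The share of esr2b in their summed FPKM was 47.2% ± 8.54 in control (n = 5) and 44.7% ± 5.34 in MeHg libraries (n = 6). Shares of esr1 were 30.5% ± 3.72 and 33.7% ± 2.65, and those of esr2a 22.4% ± 6.08 and 21.7% ± 4.30. Each pair of means differed by less than 1 SD of the control libraries, though the esr1 pair differed by more than the SD of the MeHg libraries. In MeHg replicate 4 and control replicate 4 the scaled count per FPKM unit of esr2b was 10.7 and 11.9, against 13.5 to 14.9 elsewhere. Its FPKM, and so its share, was high there for its scaled count. The shares were not tested.

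**Figure D5:**
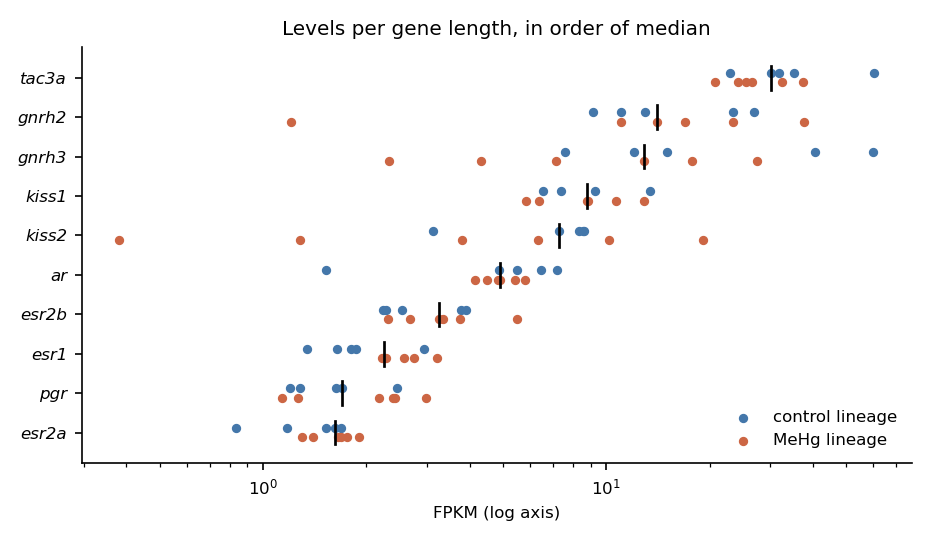
FPKM of each gene in each library (horizontal, log axis), ordered by median (black bar), with control and MeHg libraries in separate colours; kiss1 in control replicate 2, listed at 0, cannot be drawn on the log axis. The medians run from 30.2 for tac3a to 1.62 for esr2a, and points of neighbouring genes overlap.

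Other genes of the reproductive and steroid pathways were read from the same fit. Of 79 listed genes 64 were in the tables and 40 entered the test. None passed a limma adjusted p of 0.05. At an unadjusted p under 0.05 there were 4 of 40, 2 higher and 2 lower, against 6.61% of all tested genes. The median log2 fold change of the 40 genes was 0.02, beside 0.03 for all tested genes.

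Most receptors for the peptides had low scaled counts. The scaled counts of gnrhr2 and gnrhr4, receptors for gonadotropin-releasing hormone, averaged 1.26 and 4.61 in control and 1.16 and 3.38 in MeHg libraries, below the filter. The kisspeptin receptor gene kiss1ra stood at 14.2 ± 5.08 in control (SD, n = 5) and 10.2 ± 2.90 in MeHg libraries (SD, n = 6; limma adjusted p = 0.873). Its relative kiss1rb was below the filter. The neurokinin receptor gene tacr3l stood at 35.4 ± 9.84 and 38.5 ± 9.64 (limma adjusted p = 0.946). The smallest p among 4 tested genes of this list belonged to npvf, which encodes the gonadotropin-inhibitory RFamide precursor, at 41.1 ± 14.8 and 24.0 ± 16.1 (log2 fold change -0.95 ± 0.47, limma adjusted p = 0.792). The secretogranin gene scg2b stood at 4669 ± 866 and 4385 ± 766 (limma adjusted p = 0.941).

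Of 9 tested genes of steroid synthesis and metabolism, 4 had values above 0 and 5 below. The gene for the cortisol-inactivating enzyme hsd11b2 came first by p, at 195 ± 91.8 in control (SD, n = 5) and 450 ± 386 in MeHg libraries (SD, n = 6). Its log2 fold change stood at 1.01 ± 0.45 (limma adjusted p = 0.742). The 17-beta-hydroxysteroid dehydrogenase genes hsd17b3, whose product makes testosterone, and hsd17b8 had log2 fold changes of -0.84 ± 0.45 and -0.60 ± 0.33 (limma adjusted p = 0.820 and 0.831). Genes of the first steps from cholesterol, star, cyp11a1 and cyp17a1, averaged at most 7.18 in either lineage and were below the filter.

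Other steroid and related receptors included 10 tested genes, 7 above 0 and 3 below. The membrane progestin receptor gene paqr6 stood at 1262 ± 650 and 1754 ± 566 (limma adjusted p = 0.831). The estrogen-related receptors, which bind no estrogen, included esrrga at a log2 fold change of 0.29 ± 0.22 and esrra at 0.30 ± 0.29 (limma adjusted p = 0.879 and 0.902). Of 17 tested coregulator and receptor chaperone genes 8 had values above 0 and 9 below. The gene nrip1a, which encodes a corepressor that binds estrogen receptors in mammals, had the smallest p of the pathway genes, at 174 ± 55.8 in control (SD, n = 5) and 285 ± 84.3 in MeHg libraries (SD, n = 6), and the log2 fold change came to 0.74 ± 0.24 (limma adjusted p = 0.464). The genes stip1 and fkbp4, for partners of Hsp90 in steroid receptor assembly, had log2 fold changes of -0.40 ± 0.14 and -0.34 ± 0.16 (limma adjusted p = 0.536 and 0.746).

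The genes whose profiles over the 11 libraries lay nearest to each member were found by the root mean square (RMS) distance of centred log2 values. The search left out genes without a symbol and genes with clone-style names. It also left out any name that begins with letters used for such names, for example si or im. The nearest to gnrh2, whose own RMS deviation from its mean was 1.16, were cart1 at 0.46 and card9 at 0.63. The scaled count of cart1 was 48.0, 20.2, 31.4, 15.4 and 12.0 in control replicates 2, 4, 5, 6 and 8, ran up to 36.9 in the MeHg libraries, and was 0 in MeHg replicate 5, where gnrh2 was lowest. The nearest to kiss2 were sall1b at 0.84 and pnocb at 0.92, against an own deviation of 1.32. Of these, sall1b stood at 6.70 and 6.80 in MeHg replicates 1 and 4, the lowest libraries for kiss2, and at 15.5 to 34.4 in the others. The nearest to gnrh3 were sall4 (0.72) and slc43a2b (0.73), with an own deviation of 1.24, and those to kiss1 cbx8a (0.62) and cyb561d2 (0.74), with 1.37. For the other members the nearest genes lay at distances of 0.14 to 0.24, against own deviations of 0.30 to 0.56. They were ndufs7 and glrx5 for tac3a, gbp3 and stab1 for esr1, ccdc85b and rpz4 for esr2a, smo and dnajc11 for esr2b, traf3ip1 and RBM33 for ar, and stap2a and fzd8b for pgr. In control replicate 5 traf3ip1 and RBM33 were lowest, like ar, at 16.7 and 52.3. There ndufs7 and glrx5 were highest, like tac3a, at 1344 and 435. These are the closest of the searched profiles over 11 libraries that share tissue content and depth, and are given as a description.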

How the data were processed

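Libraries were TruSeq paired-end RNA-seq, per the labels' protocols. CASAVA 1.8.2, TopHat, Cuffnorm, cutadapt, FastQC and build Zv9 appear in the submitters' processing notes. The sources used here give no annotation version, no strand setting and no rule for reads that gene copies share, which leaves paralogs such as esr2a and esr2b uncertain. The authors deposited a table of signal values, read from the values as fragment counts over a size factor (98.2% to 98.9% of values per library were whole multiples of a step, within 0.01), and a second table of FPKM values. In both files 1 column had no name and was matched to no sample, and was not used.

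The main test was limma 3.58.1 (R 4.3.3, statmod 1.5.0; eBayes with trend and robust) on log2 of the scaled count + 1, with lineage as the factor. Genes needed 10 or more in 6 or more libraries, and p-values were adjusted by Benjamini-Hochberg over 16364 genes. The script was checked on simulated data. This scale understates changes of low genes, and intervals are unadjusted. Poisson counting gave the counting CV. Named by rule were the members, the 3 smallest p of each pathway list, and the 2 nearest profiles of each member among the names searched. Peptide receptors, early steroid synthesis genes and regional markers named beyond that rule were chosen after their values were seen. Members and lists were chosen with earlier results of these data known. Alternatives covered scaling, filter, pseudocount, FPKM, array weights, replicate block and omitted libraries. Median-of-ratios scaling, the fit without block on the shared numbers and both omissions by marker level came after seeing the data. Tables were prepared with Python 3.11.15 and pandas 2.3.3.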

Additional observations from a re-analysis of the deposited data

Results flagged for a closer look

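In the control lineage, replicate 4 held a kiss2 scaled count of 10.9, while the other 4 control libraries lay between 25.9 and 30.7. The gap to the nearest library was 0.756 of the whole range, above the critical value of 0.710 for 5 libraries in Dixon's test. It was the single library set apart by this rule in 20 groups of values (10 genes in each lineage), where chance gives about 1 in 20.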

How the results depend on the processing

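The count of 0 peptide and receptor genes past the threshold, and that of 0 pathway genes, held in all fits run, including a threshold of 0.1, and the smallest adjusted p of a member in any of them was 0.337 (esr1, array weights). Of the log2 fold changes of single members under 24 alternatives, 7 turned sign and 233 did not. Those of ar were -0.14 with array weights, -0.13 without the 4 libraries high in epidermal or muscle markers and -0.18 without those low in tbr1b and eomesa, and -0.22 to 0.33 when single libraries were left out. That of gnrh2 was 0.58 without the 4 libraries, and -0.63 to 0.30 when single libraries were left out, and that of kiss1 ran from -0.043 to 1.25. Among pathway genes, esrra was at -0.087 without the libraries low in tbr1b and eomesa, and scg2b at 0.20 without scaling and -0.17 to 0.011 when single libraries were left out. The cause of these changes was not tested. Without scaling, which left depth in the values, the median of all genes moved from 0.03 to 0.30. The replicate number as a replicate block could use 4 shared numbers, or 8 libraries. It left 0 members past the threshold, with 20 genes called over all genes against 23 without the block in the same libraries. Deviations of same-numbered libraries correlated at 0.055 to 0.46, and 2 of the 8 libraries correlated best with their own number, so the numbers were not taken as pairs. Depth limits pgr, kiss2, gnrh3 and kiss1, with medians of 17, 14, 14 and 19 fragments per library. Calls over all genes numbered 44, against 24 without scaling, 105 with array weights and 72 without control replicate 5. The planned tests and scaling for raw counts (edgeR, DESeq2, TMM) were not run, since the deposited values are not raw counts.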

Other observations

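The scaled count per FPKM unit, the quotient of the deposited values of a gene, was nearly constant for most members but not for 3 receptors. The highest value exceeded the lowest by a ratio of 1.39 for esr2b, 1.22 for ar and 1.14 for pgr, and by 1.02 to 1.09 for the other members. For esr2b it was 10.7 in MeHg replicate 4 and 11.9 in control replicate 4, and 13.5 to 14.9 in the other libraries. For ar it was 14.1 in control replicate 2 and 15.9 to 17.2 in the others. Transcripts were not analysed here.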
